A study of Mus musculus with 8 samples.

Results

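Immediate early genes are switched on within minutes of a growth factor or stress signal, before any new protein is made. A large share of that response runs through the mitogen-activated protein kinase (MAPK) cascades, in which RAS, RAF and MEK activate the kinase ERK, and ERK activates transcription factors bound at the promoters of genes such as Fos and Egr1. Some of the induced genes act back on the cascade: DUSP proteins remove the activating phosphates from MAP kinases, Sprouty proteins restrain signalling below receptor tyrosine kinases, and ZFP36 proteins bind AU-rich messenger RNAs and hasten their decay. Here 35 of them, taken by symbol from a list of such genes, were followed among the 41128 genes of the table. They comprise FOS and JUN subunits of the transcription factor AP-1, their partners Atf3 and Maff, the EGR, NR4A, IER and KLF families, Myc, Srf, Rhob, ZFP36 genes, 5 DUSP genes and 3 Sprouty genes.

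RNA was sequenced from mouse cells labelled haemogenic endothelium, the endothelium that gives rise to blood, which were grown from embryonic stem (ES) cells of strain C57BL/6. The 4 groups, with 2 libraries each, were Hdac2 lox/lox cells with 4OHT, Hdac2 lox/lox cells with EtOH, Hdac1 lox/lox cells with 4OHT and Hdac1 lox/lox cells with EtOH. In both lines the named gene, which encodes a class I histone deacetylase, carries lox sites on both alleles, in the EtOH groups too. 4OHT (4-hydroxytamoxifen) is commonly used to switch on a tamoxifen-dependent Cre recombinase that deletes sequence between lox sites, and ethanol (EtOH) is its solvent. The sources used here give neither the Cre construct and the number of ES cell clones nor the exposure time and the culture behind each library. P-values therefore measure only the spread between libraries, which may be technical. The lox status of a line cannot be told apart from other differences between the lines.

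Total counts per library lay between 10215792 and 19552380. All 35 members had 1 row each, and 32 passed the filter on low counts and were tested. The counts of the targeted genes did not check the labels: Hdac1 had 5.12 and 4.00 CPM in Hdac2 lox/lox 4OHT libraries and 7.45 and 7.16 CPM in Hdac2 lox/lox EtOH libraries, and 6.99 and 7.12 CPM in Hdac1 lox/lox 4OHT libraries and 5.78 and 5.60 CPM in Hdac1 lox/lox EtOH libraries. Hdac2 had 149 and 149 CPM in Hdac2 lox/lox 4OHT libraries and 165 and 151 CPM in Hdac2 lox/lox EtOH libraries, and 152 and 140.3 CPM in Hdac1 lox/lox 4OHT libraries and 148 and 142 CPM in Hdac1 lox/lox EtOH libraries. Gm10093 is a near copy of Hdac1, and counts over a whole gene include exons outside a deleted stretch. Endothelial markers (Cdh5, Pecam1, Kdr, Tek, Emcn, Erg, Esam, Cldn5) were present in all libraries, with sums of 2445 to 6938 CPM, and so were the 9 haemogenic and emerging blood markers, with sums of 464 to 1167 CPM. In the Hdac1 line the libraries did not group by agent. Over log2 CPM of all tested genes, Hdac1 lox/lox 4OHT replicate 1 had a correlation of 0.9895 with Hdac1 lox/lox EtOH replicate 2 and 0.9796 with its own replicate. Hdac1 lox/lox 4OHT replicate 2 had one of 0.982 with Hdac1 lox/lox EtOH replicate 1, and the 2 Hdac1 lox/lox EtOH libraries had 0.9705 with each other. Whether the replicate numbers and labels of these 4 libraries are right was not tested. Counts and medians over the members in the Hdac1 line are therefore given also with each of these libraries left out, and values of single genes there are from all 4. CPM below are counts scaled to library size, after correction by the trimmed mean of M values (TMM), and log2 changes are 4OHT over EtOH unless said otherwise. A gene is called where edgeR's quasi-likelihood test, adjusted over all 14179 tested genes by Benjamini-Hochberg, gave an adjusted p under 0.05. Besides Egr1, and Fos, Zfp36l1, Dusp2 and Spry1, whose promoters are shown next, the called members lie, in the deposited table (mm10), at chr15:101266846-101274792 (Nr4a1), chr1:155096361-155099636 (Ier5), chr10:99263231-99267488 (Dusp6), chr5:32136472-32157831 (Fosl2), chr17:35821684-35822923 (Ier3), chr15:38294413-38300707 (Klf10) and chr14:105891949-105896819 (Spry2).

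Promoters of members that the results turn on are shown to place the values beside the DNA upstream of each gene. They are RefSeq sequences (GRCm38.p6), read along the gene's strand and ending just before the start of the gene in the counted annotation, for 27 of the 35 members. Capitals mark the serum response factor motif (CArG box), the cyclic AMP response element (CRE) TGACGTCA or the TATA motif TATAAA. Motifs were searched in the 250 bases before a RefSeq start, TATAAA on the gene's strand only and the others on both strands. Fos, Zfp36l1, Dusp2 and Spry1 were called with 4OHT in the Hdac2 line, and Srf, Zfp36 and Dusp5 hold CArG boxes.
Fos (chr12:85473640-85473889, plus strand): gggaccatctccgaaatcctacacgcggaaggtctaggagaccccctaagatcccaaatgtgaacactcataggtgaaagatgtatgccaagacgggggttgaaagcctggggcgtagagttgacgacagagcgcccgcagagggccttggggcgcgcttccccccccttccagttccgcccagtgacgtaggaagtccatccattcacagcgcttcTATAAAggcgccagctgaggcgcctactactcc
Zfp36l1 (chr12:80113014-80113263, minus strand): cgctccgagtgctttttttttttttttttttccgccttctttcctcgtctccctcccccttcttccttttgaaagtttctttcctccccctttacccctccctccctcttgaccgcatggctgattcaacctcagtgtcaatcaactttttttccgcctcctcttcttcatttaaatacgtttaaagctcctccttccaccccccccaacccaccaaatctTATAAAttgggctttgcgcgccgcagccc
Dusp2 (chr2:127335909-127336158, plus strand): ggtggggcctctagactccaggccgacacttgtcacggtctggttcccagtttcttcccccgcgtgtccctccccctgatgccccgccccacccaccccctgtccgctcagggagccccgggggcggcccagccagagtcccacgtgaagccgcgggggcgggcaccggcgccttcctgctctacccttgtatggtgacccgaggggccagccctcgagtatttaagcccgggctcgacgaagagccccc
Spry1 (chr3:37639697-37639946, plus strand): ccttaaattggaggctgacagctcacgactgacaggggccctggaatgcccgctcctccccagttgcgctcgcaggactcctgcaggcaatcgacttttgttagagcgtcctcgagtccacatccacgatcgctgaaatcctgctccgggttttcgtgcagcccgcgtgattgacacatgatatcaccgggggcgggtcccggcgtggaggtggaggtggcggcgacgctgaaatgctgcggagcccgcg
Srf (chr17:46556163-46556412, minus strand): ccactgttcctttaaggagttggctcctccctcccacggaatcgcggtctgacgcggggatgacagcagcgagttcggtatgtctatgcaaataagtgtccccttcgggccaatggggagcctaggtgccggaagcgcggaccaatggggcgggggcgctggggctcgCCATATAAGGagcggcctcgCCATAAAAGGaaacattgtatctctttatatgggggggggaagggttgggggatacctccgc
Zfp36 (chr7:28379256-28379478, minus strand): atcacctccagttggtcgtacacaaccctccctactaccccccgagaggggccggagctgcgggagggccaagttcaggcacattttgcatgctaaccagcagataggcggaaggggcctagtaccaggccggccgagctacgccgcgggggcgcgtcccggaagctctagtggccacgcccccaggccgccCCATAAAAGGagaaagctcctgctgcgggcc
Dusp5 (chr19:53528895-53529108, plus strand): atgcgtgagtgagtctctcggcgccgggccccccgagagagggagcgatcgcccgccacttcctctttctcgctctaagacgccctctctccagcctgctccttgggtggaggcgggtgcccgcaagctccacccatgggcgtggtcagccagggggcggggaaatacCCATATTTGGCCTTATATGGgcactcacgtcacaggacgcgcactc

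A CArG box, the site bound by serum response factor (SRF), lay in the window of 4 of 27 members (14.8%), against 1.62% of 27025 genes and 1.47% of all 32851 promoters. Besides Srf, Zfp36 and Dusp5, the fourth was Egr2, where the box lay before later start sites inside the counted gene. The Srf and Dusp5 windows each hold a pair of boxes, and the Zfp36 window a single one. The CRE was found before Dusp1 and Maff, against 1.55% of all promoters. The AP-1 motif TGAGTCA was found in 0 of 27 members, against 4.46% of all promoters. The motif of EGR proteins, GCGTGGGCG, was found before Maff only, against 0.536% of all promoters. On the gene's strand TATAAA was found before Fos and Zfp36l1, against 7.59% of all promoters. None of these motifs overlapped another. A window without a match says only that these letters are not in it, and the serum response element described for Fos lies farther upstream.

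With 4OHT in the Hdac2 line, the genes of AP-1 and EGR transcription factors Fos, Fosl2 and Egr1 rose 5.60-fold, 4.12-fold and 3.49-fold. Ier3, linked to survival of stressed cells, and the mRNA decay gene Zfp36l1 rose by less. The feedback inhibitor genes Dusp2, Spry1 and Spry2 and the zinc finger factor gene Klf10 fell. In all, 9 of the 32 tested members were called (28.1%), 5 higher and 4 lower, against 36.1% of all tested genes. The share of members called was thus not above that of genes in general here, unlike in the fit with a length offset, given below. Of all tested genes, 18.9% were called higher and 17.2% lower. The median log2 fold change was 0.41 over the 32 members and −0.02 over all tested genes. The 4OHT libraries lay above both EtOH libraries for 16 members (50%, against 38.6% of all genes) and below both for 9 (28.1%, against 39.7%). At an unadjusted p under 0.05 there were 15 members, against 49.6% of all tested genes. The calls of members and of genes in general rest on every library of the line. Without Hdac2 lox/lox 4OHT replicate 1, 3 members were called (Fos, Egr1 and Dusp2), with 5.6% of all genes. Without Hdac2 lox/lox 4OHT replicate 2, Hdac2 lox/lox EtOH replicate 1 or Hdac2 lox/lox EtOH replicate 2, 0 members were called, with 0.616%, 0.801% and 0% of all genes. In those fits the lone library was taken to vary like the other groups. In bulk RNA, fewer cells of a type and less RNA per cell cannot be told apart.

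**Figure D1:**
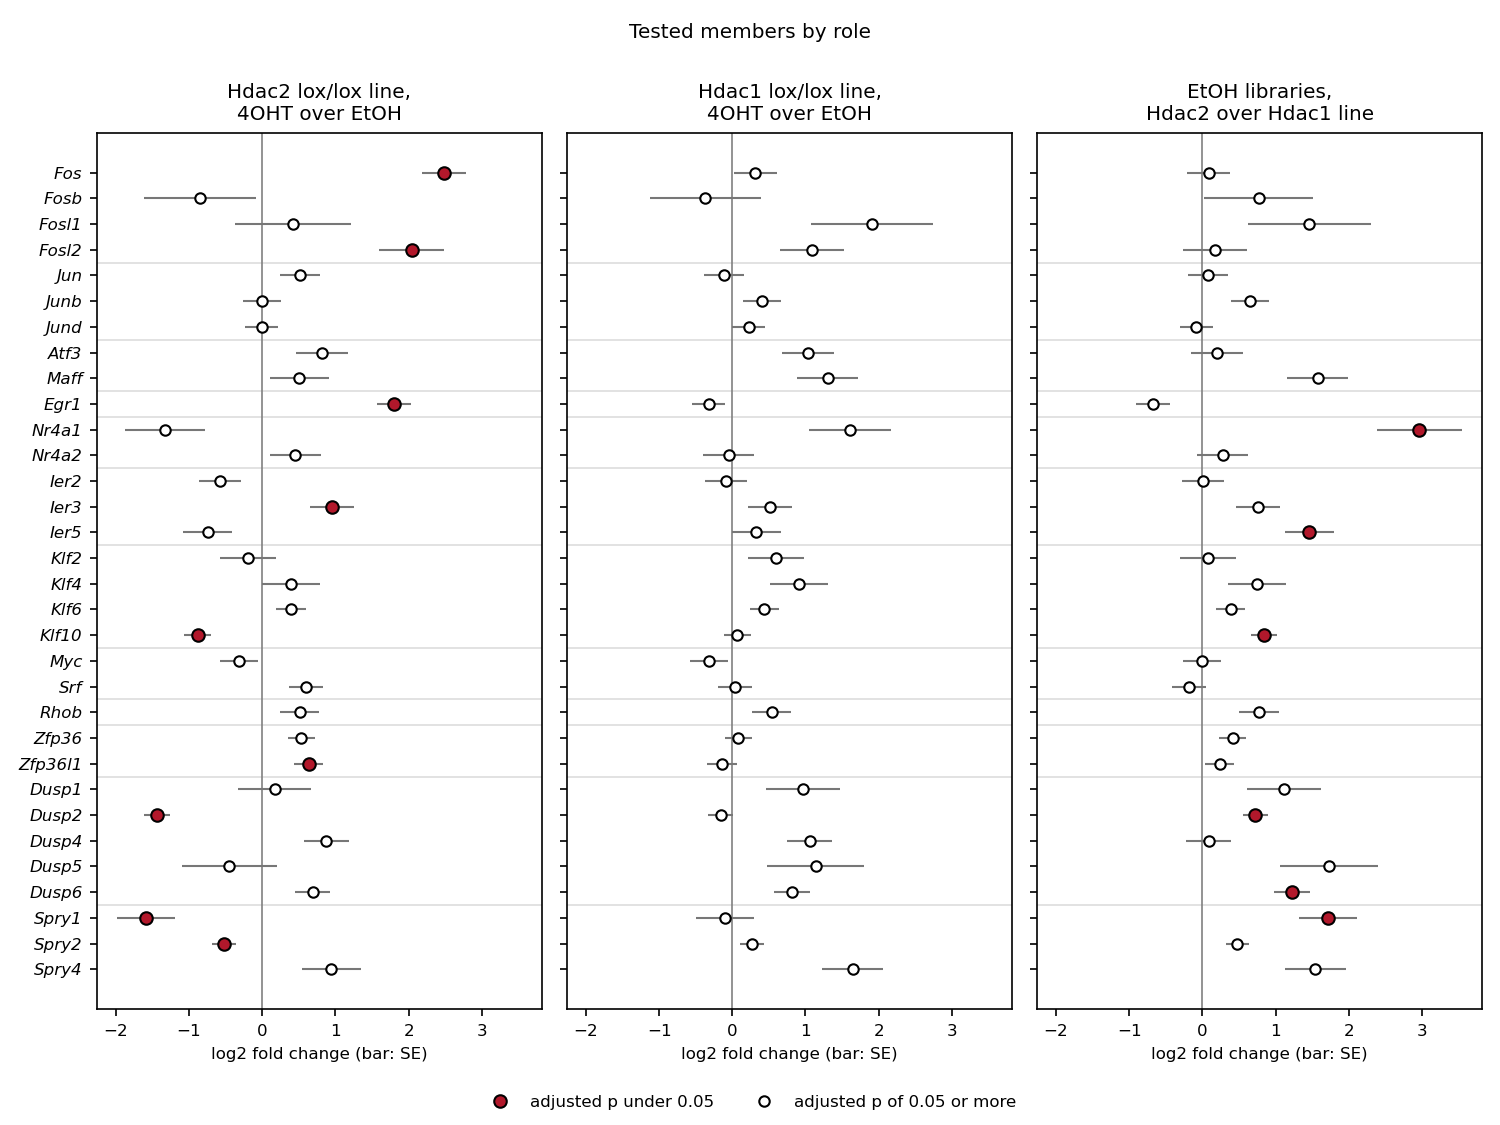
Log2 fold change (horizontal axis) of the 32 tested members, ordered by role, in 3 comparisons; bars are standard errors and filled points have an adjusted p under 0.05 by edgeR's quasi-likelihood test. Filled points lie on both sides of 0 in the Hdac2 line, are absent in the Hdac1 line, and lie to the right of 0 in the comparison of the EtOH libraries.

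AP-1 is a dimer of FOS and JUN family proteins. In the Hdac2 line 2 of its 4 FOS subunit genes rose with 4OHT, beside 18.9% of all tested genes. None of its 3 JUN subunit genes was called, beside 36.1% of all tested genes. Fos, the classical immediate early gene, had 72.6 and 73.2 CPM in Hdac2 lox/lox 4OHT libraries and 13.7 and 12.2 CPM in Hdac2 lox/lox EtOH libraries. Its replicates lay close together and the groups were far apart, with a log2 change 2.49 ± 0.30 SE, adjusted p = 0.0069 (edgeR's quasi-likelihood test). Fos in the Hdac1 line had 13.7 and 16.7 CPM with 4OHT and 16.2 and 8.35 CPM with EtOH, which overlap (log2 change 0.31 ± 0.29 SE, adjusted p = 0.889). Thus 6 libraries held Fos between 8.35 and 16.7 CPM, and the 2 Hdac2 lox/lox 4OHT libraries stood above all of them. Fosl2, which encodes the more lasting subunit FRA-2, had 146 and 126 CPM in Hdac2 lox/lox 4OHT libraries and 42.5 and 23.1 CPM in Hdac2 lox/lox EtOH libraries (log2 change 2.04 ± 0.45 SE, adjusted p = 0.016). It had 72.5 and 51.9 CPM in Hdac1 lox/lox 4OHT libraries and 16.9 and 41.4 CPM in Hdac1 lox/lox EtOH libraries (log2 change 1.09 ± 0.44 SE, adjusted p = 0.734). Fosl2 libraries with 4OHT were above the EtOH libraries of their own line in both lines, and the change was called in the Hdac2 line. The difference between the lines was 0.95 on the log2 scale (adjusted p = 0.327, edgeR), and the replicates differed more than those of Fos.

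The other FOS genes were at low levels. Fosb had 2.64 and 4.89 CPM in Hdac2 lox/lox 4OHT libraries and 7.0 and 6.49 CPM in Hdac2 lox/lox EtOH libraries, and 1.33 and 4.67 CPM in Hdac1 lox/lox 4OHT libraries and 6.55 and 1.40 CPM in Hdac1 lox/lox EtOH libraries. Its libraries with 4OHT were the lower ones in the Hdac2 line, and overlapped those with EtOH in the Hdac1 line, and neither comparison was called (adjusted p = 0.395 and 0.958, edgeR). Fosl1 lay between 0.478 and 4.27 CPM, but its value is uncertain: 1056 bases of its transcript are shared with Ccdc85b, which had 8716 counts over all libraries against 272 for Fosl1. The JUN genes were the more abundant subunits in counts per kilobase of exon, with means of 161, 74.0 and 69.9 CPM per kb over the 8 libraries for Jund, Junb and Jun, against 12.05 for Fos. In the Hdac2 line Jun had 296 and 304 CPM with 4OHT and 258 and 161 CPM with EtOH (log2 change 0.52 ± 0.27 SE, adjusted p = 0.161). Junb and Jund had log2 fold changes of 0.00 and 0.00 there, and overlapped between the groups. None of the 3 JUN genes was called in any of the 4 comparisons.

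Atf3, a stress-induced AP-1 partner, had 87.5 and 85.0 CPM in Hdac2 lox/lox 4OHT libraries and 63.8 and 33.8 CPM in Hdac2 lox/lox EtOH libraries, and 80.1 and 94.0 CPM in Hdac1 lox/lox 4OHT libraries and 29.3 and 55.7 CPM in Hdac1 lox/lox EtOH libraries. With 4OHT it lay above both EtOH libraries in each line, with log2 fold changes of 0.82 (adjusted p = 0.106) and 1.03 (adjusted p = 0.727) by edgeR, and was not called. Maff, a small MAF protein gene, had 76.6 and 59.3 CPM in Hdac2 lox/lox 4OHT libraries and 59.9 and 35.4 CPM in Hdac2 lox/lox EtOH libraries, and 26.0 and 53.1 CPM in Hdac1 lox/lox 4OHT libraries and 20.1 and 11.95 CPM in Hdac1 lox/lox EtOH libraries. Its groups overlapped in the Hdac2 line and did not in the Hdac1 line, and it was not called in either.

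Egr1, a zinc finger factor gene whose induction by ERK is well known, had 57.2 and 86.6 CPM in Hdac2 lox/lox 4OHT libraries and 22.5 and 18.6 CPM in Hdac2 lox/lox EtOH libraries (log2 change 1.80 ± 0.24 SE, adjusted p = 0.0078, edgeR). Both 4OHT libraries were above every other library, although they differed from each other more than the EtOH libraries did. The order was the other way round in the Hdac1 line, where Egr1 had 24.0 and 28.2 CPM in Hdac1 lox/lox 4OHT libraries and 34.5 and 31.0 CPM in Hdac1 lox/lox EtOH libraries (log2 change −0.32 ± 0.23 SE, adjusted p = 0.837). The other EGR genes were near the floor of detection and were not tested. Egr2, known for its role in hindbrain and Schwann cells, had 1 to 8 counts in a library, and Egr3 had 0 to 3. A count of 3 corresponds to 0.150 to 0.287 CPM in these libraries.

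The orphan nuclear receptor gene Nr4a1 lay the other way. It had 24.5 and 29.1 CPM in Hdac2 lox/lox 4OHT libraries and 73.2 and 61.0 CPM in Hdac2 lox/lox EtOH libraries, so 4OHT libraries were the lower ones (log2 change −1.33 ± 0.55 SE, adjusted p = 0.089, edgeR, not called). It had 9.66 and 42.4 CPM in Hdac1 lox/lox 4OHT libraries and 9.00 and 8.20 CPM in Hdac1 lox/lox EtOH libraries. There the mean with 4OHT rests on replicate 2, while replicate 1 lay close to the EtOH libraries. Nr4a2, which is best known from dopamine neurons, lay between 1.80 and 4.18 CPM in all 8 libraries and was called in none of the comparisons. Nr4a3 was not tested, with 9 and 9 counts in Hdac2 lox/lox 4OHT libraries, 2 and 0 in Hdac2 lox/lox EtOH libraries, 9 and 5 in Hdac1 lox/lox 4OHT libraries and 1 and 9 in Hdac1 lox/lox EtOH libraries.

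**Figure D2:**
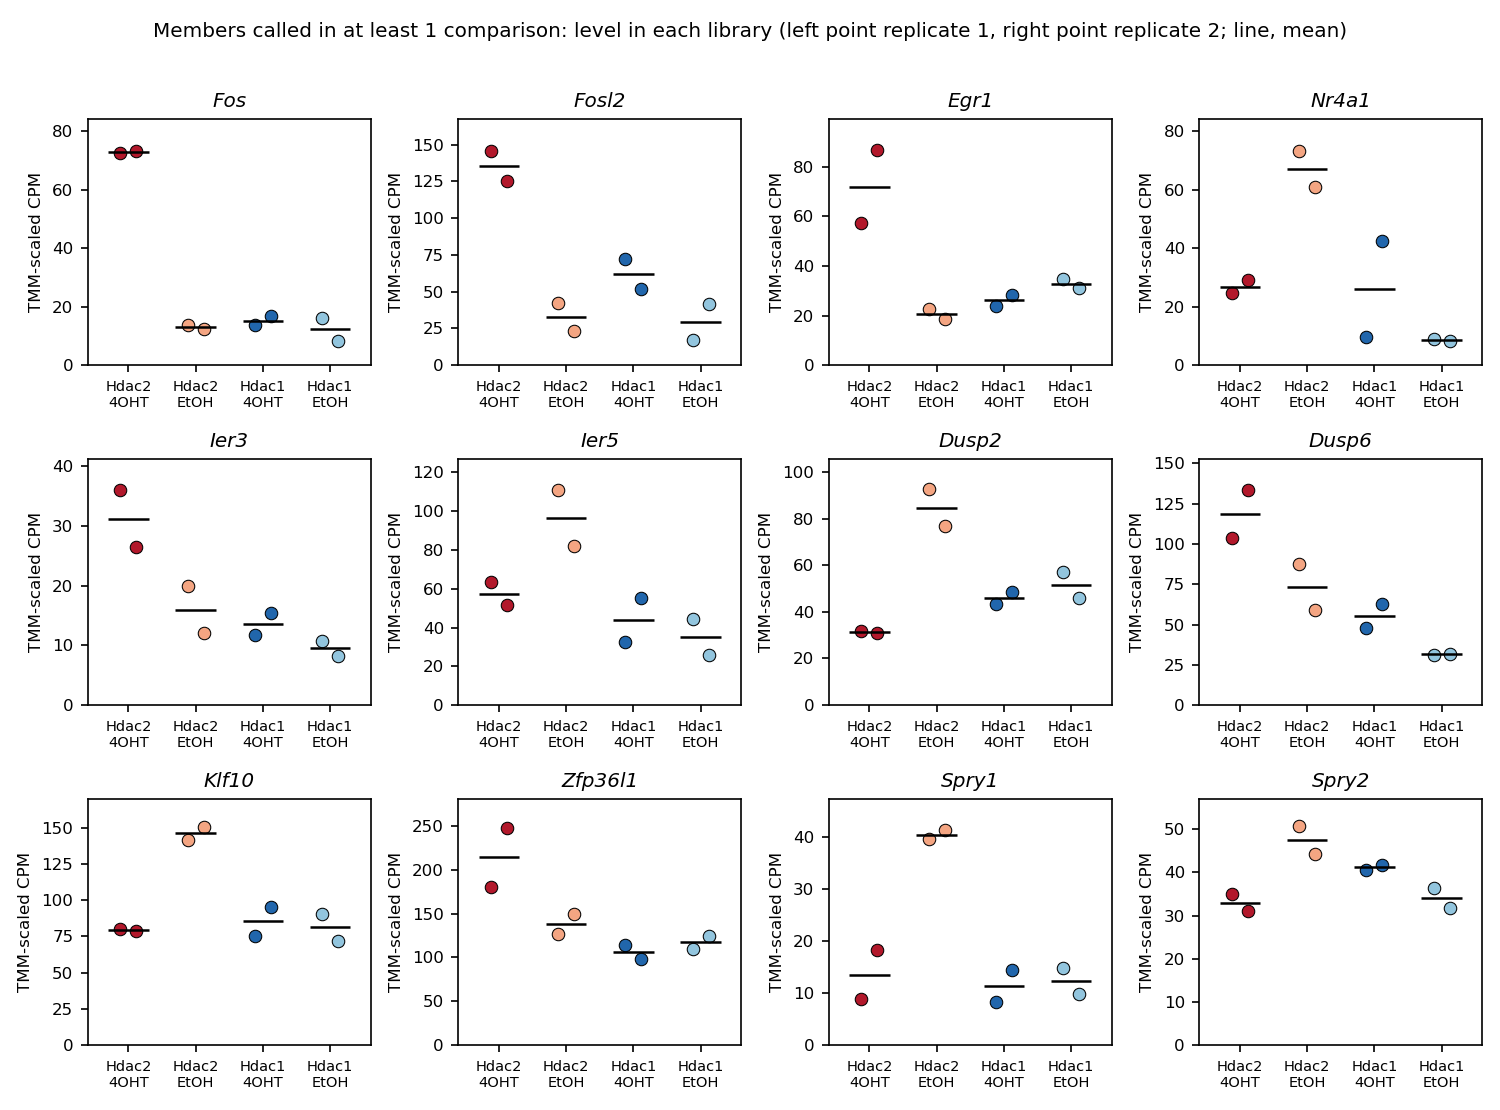
Level of the 12 members called in at least 1 comparison (vertical axis, TMM-scaled CPM from 0) in each library; points are libraries, lines are means of 2 libraries. Fos, Fosl2, Egr1, Ier3, Zfp36l1 and Dusp6 are highest in the Hdac2 lox/lox 4OHT libraries. Nr4a1, Ier5, Dusp2, Klf10, Spry1 and Spry2 are highest in the Hdac2 lox/lox EtOH libraries.

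Of the 3 IER genes 1 was called with 4OHT in the Hdac2 line, beside 36.1% of all tested genes. Ier3 had 36.1 and 26.5 CPM in Hdac2 lox/lox 4OHT libraries and 19.9 and 12.1 CPM in Hdac2 lox/lox EtOH libraries (log2 change 0.96 ± 0.30 SE, adjusted p = 0.041, edgeR), and 11.7 and 15.4 CPM in Hdac1 lox/lox 4OHT libraries and 10.8 and 8.25 CPM in Hdac1 lox/lox EtOH libraries. It was higher with 4OHT in both lines with no overlap, and called in the Hdac2 line. Ier5, an adaptor for a protein phosphatase, had 63.5 and 51.5 CPM in Hdac2 lox/lox 4OHT libraries and 111 and 81.8 CPM in Hdac2 lox/lox EtOH libraries (log2 change −0.75 ± 0.33 SE, adjusted p = 0.11), and 32.7 and 55.0 CPM in Hdac1 lox/lox 4OHT libraries and 44.3 and 25.8 CPM in Hdac1 lox/lox EtOH libraries. Ier2 had 106 and 112 CPM in Hdac2 lox/lox 4OHT libraries and 170.5 and 154 CPM in Hdac2 lox/lox EtOH libraries (log2 change −0.58 ± 0.29 SE, adjusted p = 0.145). Both Ier2 and Ier5 were lower with 4OHT in the Hdac2 line without overlap, and overlapped in the Hdac1 line.

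Klf10, a zinc finger factor gene first described as an early target of TGF-β, had 79.8 and 78.4 CPM in Hdac2 lox/lox 4OHT libraries and 142 and 150.3 CPM in Hdac2 lox/lox EtOH libraries (log2 change −0.88 ± 0.18 SE, adjusted p = 0.014, edgeR). It had 75.2 and 95.3 CPM in Hdac1 lox/lox 4OHT libraries and 90.6 and 72.1 CPM in Hdac1 lox/lox EtOH libraries. The 2 Hdac2 lox/lox EtOH libraries stood above the other 6, which lay between 72.1 and 95.3 CPM. The other KLF genes were not called with 4OHT in either line. Klf6 was the most abundant of them per length, at a mean of 119 CPM per kb over the 8 libraries. Klf2, a flow-responsive gene of endothelium, had 80.2 and 75.3 CPM in Hdac2 lox/lox 4OHT libraries and 111 and 66.2 CPM in Hdac2 lox/lox EtOH libraries, and 77.2 and 179 CPM in Hdac1 lox/lox 4OHT libraries and 87.2 and 81.5 CPM in Hdac1 lox/lox EtOH libraries. Hdac1 lox/lox 4OHT replicate 2 was the high one, and the other 7 lay between 66.2 and 111 CPM. Klf4 had 29.6 and 30.5 CPM in Hdac2 lox/lox 4OHT libraries and 28.3 and 17.1 CPM in Hdac2 lox/lox EtOH libraries (log2 fold change 0.40), and 15.0 and 36.0 CPM in Hdac1 lox/lox 4OHT libraries and 14.0 and 13.2 CPM in Hdac1 lox/lox EtOH libraries (log2 fold change 0.91).

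Srf, which encodes the factor that binds CArG boxes, had 124 and 127 CPM in Hdac2 lox/lox 4OHT libraries and 87.4 and 78.4 CPM in Hdac2 lox/lox EtOH libraries (log2 change 0.60 ± 0.23 SE, adjusted p = 0.075, edgeR). Its 4OHT libraries were higher without overlap but the change was not called. Zfp36, whose window holds a CArG box, had a log2 fold change of 0.53 (adjusted p = 0.055), and Dusp5, whose window holds a pair, one of −0.45 (adjusted p = 0.603). None of the 3 tested members with a CArG box in the window was called in the Hdac2 line. In the fit with a length offset, given below, Srf and Zfp36 were called higher. The called members Egr1 and Klf10 had no promoter sequence to search. Myc, a growth-promoting factor gene, had 95.7 and 91.0 CPM in Hdac2 lox/lox 4OHT libraries and 114 and 119 CPM in Hdac2 lox/lox EtOH libraries (log2 fold change −0.32), and Rhob, a small GTPase gene of endosomes, had 733 and 737 CPM in Hdac2 lox/lox 4OHT libraries and 666 and 362 CPM in Hdac2 lox/lox EtOH libraries (log2 fold change 0.52). Rhob had the highest mean per length of all tested members, 211 CPM per kb. Zfp36l1, the paralogue of Zfp36, had 181 and 248 CPM in Hdac2 lox/lox 4OHT libraries and 127 and 149 CPM in Hdac2 lox/lox EtOH libraries (log2 change 0.63 ± 0.20 SE, adjusted p = 0.042), and 114 and 98.7 CPM in Hdac1 lox/lox 4OHT libraries and 109 and 125 CPM in Hdac1 lox/lox EtOH libraries. Its 4OHT libraries stood above all others in the Hdac2 line, and the groups overlapped in the Hdac1 line.

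Among the DUSP phosphatase genes, 1 of 5 was called lower with 4OHT in the Hdac2 line and none was called higher. Of all tested genes, 17.2% were called lower and 18.9% higher there. Dusp2, a nuclear phosphatase gene, had 31.7 and 30.8 CPM in Hdac2 lox/lox 4OHT libraries and 92.8 and 76.7 CPM in Hdac2 lox/lox EtOH libraries (log2 change −1.44 ± 0.18 SE, adjusted p = 0.0071, edgeR). It had 43.3 and 48.3 CPM in Hdac1 lox/lox 4OHT libraries and 56.9 and 45.7 CPM in Hdac1 lox/lox EtOH libraries, so the Hdac2 lox/lox 4OHT libraries were the lowest of the 8 and the Hdac2 lox/lox EtOH libraries the highest. Dusp6, a cytoplasmic phosphatase of ERK whose transcript is often read as a sign of ERK activity, had 104 and 134 CPM in Hdac2 lox/lox 4OHT libraries and 87.6 and 59.1 CPM in Hdac2 lox/lox EtOH libraries (log2 change 0.69 ± 0.24 SE, adjusted p = 0.056). Dusp6 in the Hdac1 line had 47.6 and 63.0 CPM with 4OHT and 31.0 and 32.0 CPM with EtOH (log2 change 0.81 ± 0.24 SE, adjusted p = 0.712). Dusp4, a nuclear phosphatase of ERK and other MAP kinases, had 383 and 246 CPM in Hdac2 lox/lox 4OHT libraries and 201 and 141 CPM in Hdac2 lox/lox EtOH libraries (log2 change 0.88 ± 0.31 SE, adjusted p = 0.056), and 379 and 294 CPM in Hdac1 lox/lox 4OHT libraries and 129 and 194 CPM in Hdac1 lox/lox EtOH libraries (log2 change 1.06 ± 0.31 SE, adjusted p = 0.712). Dusp4 and Dusp6 were thus the higher ones with 4OHT in both lines without overlap, opposite to Dusp2 in the Hdac2 line, and neither was called there.

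The remaining DUSP genes varied widely between replicates. Dusp1, which acts on several MAP kinases, had 89.2 and 100.4 CPM in Hdac2 lox/lox 4OHT libraries and 106 and 62.6 CPM in Hdac2 lox/lox EtOH libraries, and 37.1 and 115 CPM in Hdac1 lox/lox 4OHT libraries and 48.5 and 29.5 CPM in Hdac1 lox/lox EtOH libraries. Dusp5, which is specific for ERK in the nucleus, had 27.0 and 11.0 CPM in Hdac2 lox/lox 4OHT libraries and 37.0 and 14.7 CPM in Hdac2 lox/lox EtOH libraries, and 8.79 and 25.6 CPM in Hdac1 lox/lox 4OHT libraries and 10.04 and 5.70 CPM in Hdac1 lox/lox EtOH libraries. Both overlapped between 4OHT and EtOH in both lines, and Hdac1 lox/lox 4OHT replicate 2 exceeded replicate 1 by more than 2-fold for each.

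Of the 3 Sprouty genes 2 fell with 4OHT in the Hdac2 line, beside 17.2% of all tested genes. Spry1 had 8.85 and 18.2 CPM in Hdac2 lox/lox 4OHT libraries and 39.5 and 41.4 CPM in Hdac2 lox/lox EtOH libraries (log2 change −1.58 ± 0.40 SE, adjusted p = 0.022, edgeR), and 8.32 and 14.5 CPM in Hdac1 lox/lox 4OHT libraries and 14.8 and 9.80 CPM in Hdac1 lox/lox EtOH libraries. The Hdac2 lox/lox EtOH libraries were the high ones, and the other 6 lay between 8.32 and 18.2 CPM. Of the Spry1 transcript 577 bases are shared with Gm42922, which has no row in the table. Spry2 had 35 and 31.0 CPM in Hdac2 lox/lox 4OHT libraries and 50.8 and 44.2 CPM in Hdac2 lox/lox EtOH libraries (log2 change −0.53 ± 0.16 SE, adjusted p = 0.039), and 40.6 and 41.7 CPM in Hdac1 lox/lox 4OHT libraries and 36.3 and 31.9 CPM in Hdac1 lox/lox EtOH libraries (log2 change 0.27 ± 0.16 SE, adjusted p = 0.798). Its change in the Hdac2 line was the smallest of the 9 called, and its libraries lay the other way in the Hdac1 line. The call of Spry2 was lost in the fit with a length offset, given below. Spry4 had 14.4 and 21.0 CPM in Hdac2 lox/lox 4OHT libraries and 10.6 and 7.74 CPM in Hdac2 lox/lox EtOH libraries (log2 change 0.94 ± 0.40 SE, adjusted p = 0.097), and 5.97 and 13.6 CPM in Hdac1 lox/lox 4OHT libraries and 2.78 and 3.50 CPM in Hdac1 lox/lox EtOH libraries (log2 change 1.64 ± 0.42 SE, adjusted p = 0.712). With 4OHT Spry4 was the higher in both lines without overlap, and it was not called in either.

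With 4OHT in the Hdac1 line, 0 of the 32 tested members were called (background 0%), and 0 of all 14179 genes. At an unadjusted p under 0.05, edgeR gave 7 members and 947 genes (6.68%), and DESeq2 called 0 members and 32 genes. The median log2 fold change was 0.37 over the members and −0.02 over all tested genes. The 4OHT libraries lay above both EtOH libraries for 14 members (43.8%, against 15.8% of all genes) and below both for 1, Egr1 (3.12%, against 15.4%). Leaving out any 1 of the 4 Hdac1 libraries also gave 0 called members and 0 called genes. The median over the members was then 0.15 to 0.57, lowest without Hdac1 lox/lox 4OHT replicate 2, and 18 of 32 members kept the sign of their log2 fold change in all 4 fits. Without Hdac1 lox/lox 4OHT replicate 2, 15 members lay above the EtOH libraries (46.9%, against 30.4% of all genes) and 8 of 32 below (against 32.0%). With 1 of the other 3 left out, 17 to 22 lay above (53.1% to 68.8%, against 28.4% to 36.8% of all genes). Below lay 2 to 7 (6.25% to 21.9%, against 28.3% to 38.9% of all genes). In both lines at once 9 members were higher with 4OHT without overlap (28.1%, against 7.69% of all genes): Fosl2, Ier3, Atf3, Dusp4, Dusp6, Klf4, Klf6, Rhob and Spry4. None was lower in both (against 7.41% of all genes). With 1 Hdac1 library left out, 10 or 11 members were higher in both (31.2% or 34.4%, against 9.3% to 24.4% of all genes). The 2 lines have no library in common, but the Hdac1 line's libraries did not group by agent.

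Some members differed widely between the replicates of the Hdac1 line. Of the 32 tested members, 8 differed by more than 2-fold between the 2 Hdac1 lox/lox 4OHT libraries, and all 8 were higher in replicate 2: Fosb, Nr4a1, Dusp1, Dusp5, Klf2, Klf4, Maff and Spry4. In the other groups 3 (Hdac2 lox/lox 4OHT), 2 (Hdac2 lox/lox EtOH) and 2 members (Hdac1 lox/lox EtOH) differed that much. The gap in Nr4a1 was the widest of these 8.

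**Figure D3:**
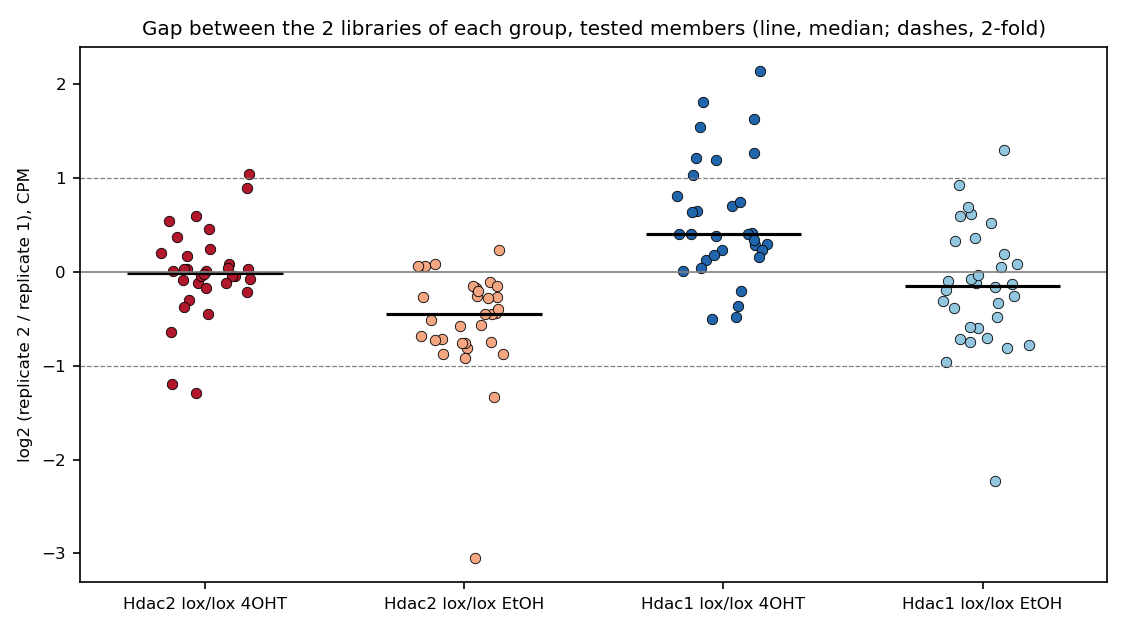
Log2 ratio of replicate 2 over replicate 1 (vertical axis) for the 32 tested members in each group; lines are medians and dashes mark 2-fold. In Hdac1 lox/lox 4OHT libraries 8 members lie above the upper dashes and none below the lower ones.

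The test of the difference between the lines (4OHT effect in the Hdac2 line minus that in the Hdac1 line) called 0 of 32 members, against 0.0282% of all tested genes (4 genes). At an unadjusted p under 0.05 there were 8 members, against 28.0% of all tested genes. Fos had a difference of 2.173 on the log2 scale (adjusted p = 0.072), Egr1 of 2.13 (adjusted p = 0.064), Dusp2 of −1.28 (adjusted p = 0.072) and Klf10 of −0.95 (adjusted p = 0.089) by edgeR's quasi-likelihood test. None of the changes described above is therefore shown to belong to the Hdac2 line alone. Leaving out Hdac1 libraries moved the calls of all genes. Without Hdac1 lox/lox EtOH replicate 1, 7 members were called (Fos, Fosl2, Egr1, Ier5, Dusp2, Klf10 and Spry2), with 25.8% of all genes, so the members' share was not above that of genes in general. Without Hdac1 lox/lox EtOH replicate 2, 1 was called (Fos, with 0.0826% of all genes), and 1 without Hdac1 lox/lox 4OHT replicate 1 (Nr4a1, with 0.0203%). DESeq2 called 5 members, namely Fos, Egr1, Nr4a1, Dusp2 and Klf10, with 12.6% of all genes. Libraries with 4OHT lay beyond both EtOH libraries in opposite directions in the 2 lines for Egr1, Nr4a1 and Spry2 (3 of 32, 9.38%, against 6.56% of all genes).

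The lines also differed without 4OHT. Between the EtOH libraries, 6 of 32 members were called (18.8%), all higher in the Hdac2 line, against 9.33% of all tested genes called, 2.91% higher and 6.42% lower. They were Nr4a1, Ier5, Dusp2, Dusp6, Klf10 and Spry1. The median log2 difference, Hdac2 over Hdac1 line, was 0.57 over the members and −0.01 over all tested genes. Over all tested genes this difference also moved with transcript length, as given below. For 17 members both Hdac2 lox/lox EtOH libraries lay above both Hdac1 lox/lox EtOH libraries (53.1%, against 29.9% of all genes), and for 1, Egr1, below (3.12%, against 30.3%). At an unadjusted p under 0.05 there were 14 members, against 33.0% of all tested genes. Nr4a1 was 7.80-fold higher in the Hdac2 line, with 73.2 and 61.0 CPM in Hdac2 lox/lox EtOH libraries and 9.00 and 8.20 CPM in Hdac1 lox/lox EtOH libraries (log2 change 2.96 ± 0.58 SE, adjusted p = 0.031, edgeR). Spry1 was 3.29-fold higher (log2 change 1.72 ± 0.40 SE, adjusted p = 0.041) and Ier5 2.76-fold (log2 change 1.46 ± 0.34 SE, adjusted p = 0.041). Dusp6 was 2.33-fold higher, with 87.6 and 59.1 CPM in Hdac2 lox/lox EtOH libraries and 31.0 and 32.0 CPM in Hdac1 lox/lox EtOH libraries (log2 change 1.22 ± 0.24 SE, adjusted p = 0.032). Klf10 and Dusp2 had log2 differences of 0.84 (adjusted p = 0.034) and 0.72 (adjusted p = 0.045). These calls changed with the libraries in the fit. The 2 Hdac2 lox/lox 4OHT libraries are in neither group compared. They enter only through the filter, the scaling and the shared estimate of spread. With replicate 1 or 2 of them left out, the log2 difference stayed at 2.96 for Nr4a1 and 1.46 for Ier5. When any of the 4 Hdac2 libraries or Hdac1 lox/lox EtOH replicate 2 was left out, 0 members were called, with 0.0069% to 1.23% of all genes. Without Hdac1 lox/lox EtOH replicate 1, 7 were called, with 26.7% of all genes, and the members' share was then not above that of genes in general.

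Dusp2, Klf10 and Spry1 were lower with 4OHT in the Hdac2 line and higher in Hdac2 lox/lox EtOH than in Hdac1 lox/lox EtOH libraries. Both comparisons use the same 2 Hdac2 lox/lox EtOH libraries, so they are not independent of each other, and no overlap between them is counted. With 4OHT in the Hdac2 line Klf10 and Spry1 stood within or near the range of the Hdac1 line, 79.8 and 78.4 CPM and 8.85 and 18.2 CPM against 72.1 to 95.3 CPM and 8.32 to 14.8 CPM over the 4 Hdac1 libraries. Dusp2 lay below that range, at 31.7 and 30.8 CPM against 43.3 to 56.9 CPM. Nr4a1 and Ier5 had the same order, but their change with 4OHT was not called.

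Transcript length moved with these results. Genes were put in 4 classes of nearly equal size by the length of their exons. The longest class, of 6608 bases and more, took 34.0% and 36.1% of counts in Hdac2 lox/lox 4OHT libraries and 21.9% and 23.4% in Hdac2 lox/lox EtOH libraries. The Hdac1 line showed 34.1% and 28.8% with 4OHT and 26.8% and 35.4% with EtOH, which overlap. In the Hdac2 line the share separates the agents, so 4OHT and a difference in RNA quality or library preparation cannot be told apart as its source, and every fold change with 4OHT in that line carries this limit. With 4OHT in the Hdac2 line the median log2 fold change was −0.50, −0.21, 0.12 and 0.61 from the shortest to the longest class. Members are mostly short, with 11, 16, 4 and 1 of the 32 in these classes. Fos (2352 bases), Ier3 (1131 bases) and Zfp36l1 (2990 bases) rose although genes of their length mostly lay below 0, and Klf10 (4179 bases), Dusp2 (2003 bases) and Spry1 (2906 bases) lay below the median at their length. Between the EtOH libraries the share of the longest class did not overlap between the lines. Median log2 differences there, Hdac2 over Hdac1 line, were 0.24, 0.11, −0.06 and −0.39 from the shortest to the longest class. A difference in RNA quality or library preparation cannot be told apart from the difference between the lines in that comparison.

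**Figure D4:**
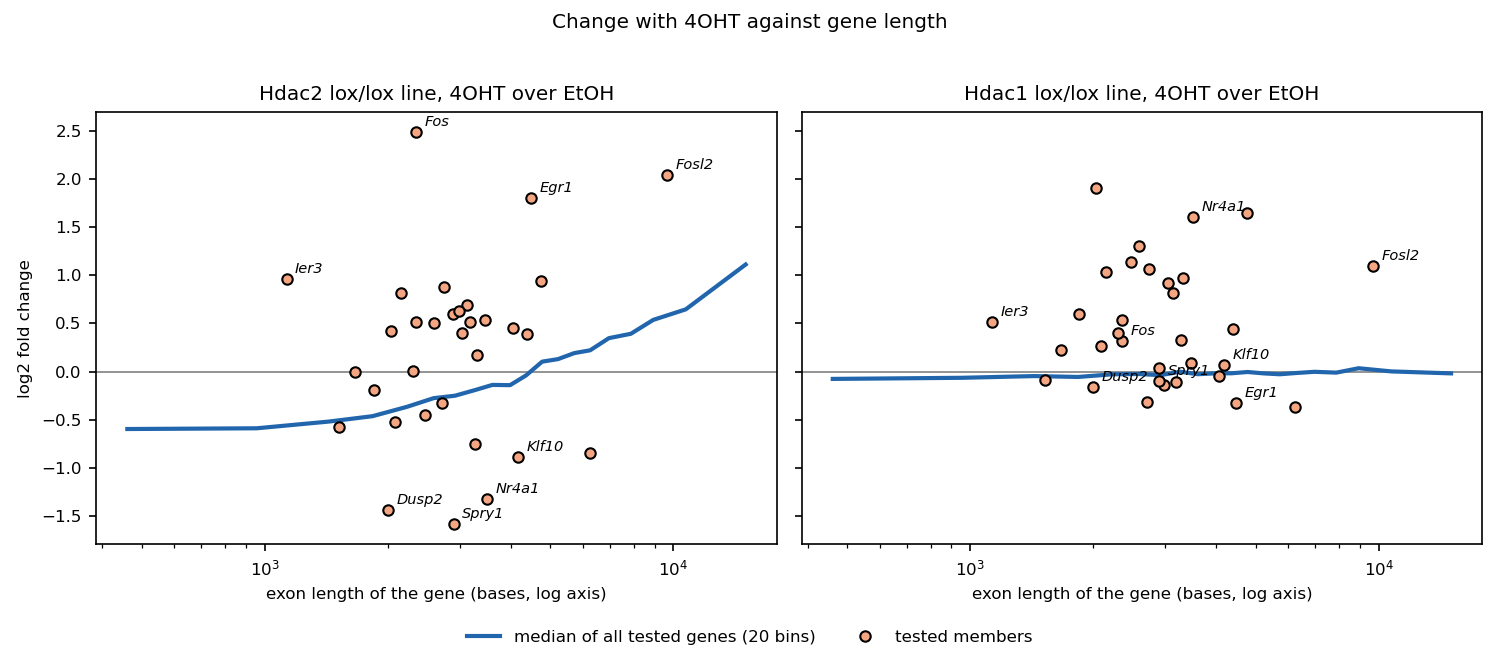
Log2 fold change with 4OHT (vertical axis) against exon length (horizontal log axis, bases) of the 32 tested members in the Hdac2 and Hdac1 lines; the line joins medians of all tested genes in 20 bins of length. In the Hdac2 line the medians climb with length and most members shorter than 4182 bases lie above them; in the Hdac1 line the medians stay near 0.

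A fit with an offset for this trend was chosen after seeing the data. In the Hdac2 line it called 15 of the 32 tested members, 12 higher and 3 lower. Of the 14122 genes with a length it called 34.5%, 2452 higher and 2421 lower. Of the 9 members called without the offset 8 remained. Spry2 was lost (log2 fold change −0.16, adjusted p = 0.387, edgeR). Jun, Atf3, Dusp4, Dusp6, Srf, Zfp36 and Rhob were gained, all higher. Fos had a log2 fold change of 2.81 in that fit, and the long gene Fosl2 one of 1.43, against 2.04 without the offset. In the same fit the difference between the lines was called for Fos (2.46, adjusted p = 0.028) and Egr1 (2.15, adjusted p = 0.033), against 1.22% of genes. The Hdac1 line gave 0 called members, and the comparison of EtOH libraries gave 8, with Maff and Spry4 added, against 14.8% of genes.

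Genes related to the members moved in part. Of 34 tested other immediate early genes, 14 were called higher with 4OHT in the Hdac2 line (41.2%) and 0 lower. Their median log2 fold change was 0.47. Of all tested genes, 18.9% were called higher there and 17.2% lower (36.1% in all). Gadd45g, a growth arrest and DNA damage gene, had 99.2 and 85.8 CPM in Hdac2 lox/lox 4OHT libraries and 31.8 and 20.1 CPM in Hdac2 lox/lox EtOH libraries (log2 change 1.83 ± 0.25 SE, adjusted p = 0.0081, edgeR). Ctgf, which encodes a matrix-associated growth factor regulator and is long known to respond to TGF-β, had 597 and 458 CPM in Hdac2 lox/lox 4OHT libraries and 188 and 95.8 CPM in Hdac2 lox/lox EtOH libraries (log2 change 1.90 ± 0.33 SE, adjusted p = 0.01). Gadd45b had a log2 change 2.04 ± 0.38 SE, adjusted p = 0.012. Of the 22 genes of the ERK cascade itself, 5 rose and 2 fell (31.8% called, beside 36.1% of all tested genes). The MAPK-interacting kinase gene Mknk1 fell (log2 change −0.80 ± 0.17 SE, adjusted p = 0.016), while Sos2, an activator of RAS, and Nf1, an inhibitor of RAS, rose (log2 fold changes 0.99 and 1.27, adjusted p = 0.02 and 0.023). Of 14 tested other feedback genes, 1 was called (7.14%, beside 36.1% of all tested genes). This was Spred2, a Sprouty relative, which rose (log2 change 0.95 ± 0.26 SE, adjusted p = 0.028). Dusp14 and Spred3 had log2 fold changes of 1.38 (adjusted p = 0.051) and 0.92 (adjusted p = 0.084).

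Of 16 tested factors upstream of immediate early genes, 6 were called higher (37.5%, beside 18.9% of all tested genes) and 0 lower (beside 17.2%). The share of all tested genes called in either direction was 36.1%. Mkl2, a partner of SRF that responds to actin, had 140.2 and 183 CPM in Hdac2 lox/lox 4OHT libraries and 30.7 and 35 CPM in Hdac2 lox/lox EtOH libraries (log2 change 2.30 ± 0.39 SE, adjusted p = 0.0099, edgeR). Its relative Mkl1 and the ATF family gene Atf7 also rose (log2 fold changes 0.71 and 1.59, adjusted p = 0.017 and 0.015). Of 10 tested stress branch kinases, 0 were called (against 36.1% of all tested genes) and 0 had an unadjusted p under 0.05 (against 49.6%). The smallest adjusted p there were those of Map2k7 (0.34 on the log2 scale, adjusted p = 0.114), Map2k6 (−0.65, adjusted p = 0.183) and Mapk9 (0.41, adjusted p = 0.186). Of 8 heat shock genes 1, the mitochondrial chaperonin gene Hspe1, fell (log2 change −1.27 ± 0.29 SE, adjusted p = 0.017). The share of all tested genes called lower was 17.2%. Dnajb1 and Hspa8 had log2 fold changes of −0.38 and −0.51 and were not called.

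In the Hdac1 line none of these related genes was called, with a smallest adjusted p of 0.712 in edgeR. All 14 tested other feedback genes had a positive log2 fold change there, with a median of 0.80 against −0.02 for all tested genes. With 1 Hdac1 library left out that median was 0.42 to 1.01, and 10 of the 14 stayed positive without Hdac1 lox/lox 4OHT replicate 2. Among them were Spred3 (1.89), Etv4 (1.87) and Etv1 (1.28), of which Etv1 and Etv4 are ETS factor genes that respond to fibroblast growth factor signalling. Of the other immediate early genes Plk2 and Plk3, polo-like kinase genes, had 1.28 and 1.29, and Sik1, a salt-inducible kinase gene, 0.64. The ERK cascade genes had a median of 0.01, with −0.35 for Mknk1, 0.25 for Map2k1 and −0.28 for Rasa1. The upstream factors had the same median of 0.01, which was −0.19 to 0.25 with 1 Hdac1 library left out, and Jdp2, Batf3 and Atf1 had 1.01, 1.13 and −0.28. The stress kinase genes Mapkapk2, Map2k3 and Map2k4 had 0.37, −0.30 and 0.18, and the heat shock genes Hspb1, Hspa1b and Hspe1 had 0.86, 0.52 and −0.28.

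Markers of several cell types moved with 4OHT in the Hdac2 line beside these changes. For comparison, 18.9% of all tested genes were called higher there and 17.2% lower. Of 7 erythroid markers 6 fell, with sums of 329 and 209.5 CPM in Hdac2 lox/lox 4OHT libraries and 1661 and 1620.0 CPM in Hdac2 lox/lox EtOH libraries. Of 8 endothelial markers 5 rose (5235 and 6938 CPM with 4OHT, 2445 and 2624 CPM with EtOH). Another 1, not called, lay below both EtOH libraries (log2 fold change −1.17). Of 6 smooth muscle and mesenchyme markers 4 rose (6192 and 4120.0 CPM with 4OHT, 2031 and 1420.0 CPM with EtOH). Of 9 haemogenic and emerging blood markers 4 fell, and 1, not called, lay above both EtOH libraries. Macrophage and leukocyte markers were low, but all 4 tested rose (36.7 and 31.4 CPM with 4OHT, 7.07 and 1.91 CPM with EtOH). Itgam, 1 of these, had 14.7 and 15.5 CPM in Hdac2 lox/lox 4OHT libraries and 1.30 and 0.0955 CPM in Hdac2 lox/lox EtOH libraries. The last value is 1 count, under the floor of 3 counts (0.287 CPM in that library). In the Hdac1 line erythroid sums were 161 and 431 CPM with 4OHT and 923 and 284 CPM with EtOH, and no marker was called. Of the rarer lists tested in the Hdac2 line, 1 of 3 cardiomyocyte markers (Nkx2-5) and 1 of 2 visceral endoderm markers (Foxa2) rose, and 0 of 2 neuronal markers and 0 of 1 pluripotency marker were called. The part that a changed mixture of cells has in the levels of the members was not tested.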

How the data were processed

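The authors deposited raw counts of reads for 41128 genes in 8 libraries. The submitters' processing notes name mm10 as the build and list, with no roles, edgeR 3.8.5 under R 3.1.0, the aligner Bowtie2 (2.2.1), the tool bcl2fastq (2.17.1.14) and SAMtools (0.1.19). The counting program, annotation release and strand setting are not given in these sources. Per the labels' protocols the library kit keeps strand. Columns were matched to samples by description, and groups came from sample titles.

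The members and gene lists were chosen with earlier results of these data known, so counts over them are descriptions. Genes were filtered with filterByExpr (minimum count 10), which left 14179 genes with 99.93% of counts. Libraries were scaled by TMM, and edgeR 4.0.16 (R 4.3.3) fitted a robust quasi-likelihood model with a mean per group to all 8 libraries. Benjamini-Hochberg adjustment at 0.05 covered all tested genes within each of 4 comparisons. Standard errors came from the F statistic. A floor of 3 counts covers counting error only. The steps were tested on simulated counts. Alternatives were other scalings, no filter, DESeq2 1.42.0, a fit of each line alone (or of the EtOH libraries alone), a replicate block and leaving out each library. A length offset (lowess span 0.3) and a block with crossed numbers were added after seeing the data.

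All 35 members are accounted for. Values in each library were to be given for members called in any comparison and, beside these, are given for some others. Of each related list, those with the lowest adjusted p, up to 3, are named for each 4OHT comparison. Spry3 and the macrophage marker Adgre1 were not found under those symbols. Lengths came from GENCODE M21 (GRCm38), in which 15 members had the same start and end as in the deposited counts. Overlaps came from the coordinates deposited with the counts, and promoters from RefSeq (GRCm38.p6). Transcripts were compared with BLAST 2.17.0 at 95% identity over at least 200 bases. Besides Fosl1, 5 members share such a stretch with an overlapping or nearby transcript (Dusp5, Jun, Jund, Spry1 and Zfp36l1). For Jun, Jund and Zfp36l1 the partner had 33, 29 and 4 counts.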

Additional observations from a re-analysis of the deposited data

Results flagged for a closer look

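The 4OHT libraries of Egr1, Nr4a1 and Spry2 lay beyond both EtOH libraries of their line, in opposite directions in the 2 lines. For Egr1 the log2 change with 4OHT was 1.80 in the Hdac2 line and −0.32 in the Hdac1 line. The difference, Hdac2 minus Hdac1 line, was 2.1271 (adjusted p = 0.064 by edgeR's quasi-likelihood test). For Nr4a1 the log2 changes were −1.33 and 1.61 in the Hdac2 and Hdac1 lines, and the difference was −2.9325 (adjusted p = 0.089). Without Hdac1 lox/lox 4OHT replicate 1 the difference in Nr4a1 was called, and without replicate 2 it was not. For Spry2 the log2 changes were −0.53 and 0.27, and the difference was −0.797 (adjusted p = 0.095). None of the 3 differences passed the adjusted threshold over all tested genes. Such a pattern was seen in 3 of 32 tested members (9.38%) and in 6.56% of all tested genes.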

How the results depend on the processing

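Over the 15 calls of single members and 16 alternatives, 240 of 240 values kept their direction, 149 stayed called and 91 did not. The 15 were picked as called in these libraries, with groups that did not overlap, so a kept direction was largely fixed in advance. In the Hdac2 line DESeq2 called 14 members (5572 genes, 39.3%). The fit of the line alone called 18 (7272 genes, 53.4% of those tested in it) and the length offset 15 (4873 genes, 34.5%). Leaving out 1 library gave 0 to 15 members and 0 to 6422 genes. It was 15 members without Hdac1 lox/lox EtOH replicate 1 or 2, with 6394 and 6422 genes. For the difference between the lines no filter on low counts gave 3 members (1187 genes), DESeq2 5 (1781 genes), the length offset 2 (172 genes) and leaving out 1 library 0 to 7 (0 to 3740 genes). In the comparison of EtOH libraries DESeq2 gave 10 members (2801 genes), a fit of these 4 libraries alone 2 (141 genes), no filter 7 (2064 genes), the length offset 8 (2086 genes) and leaving out 1 library 0 to 7 (1 to 3871 genes). In the Hdac1 line leaving out 1 library gave 0 to 0 members. Why the counts moved was not tested. Where an Hdac2 library is left out, the lone library of its group is taken to vary like the others, which include the more variable Hdac1 groups (median log2 gap between replicates 0.30 and 0.39 with 4OHT and EtOH, against 0.19 and 0.20 in the Hdac2 line). Upper quartile scaling moved the median log2 change of all genes in the Hdac2 line to −0.15, and no scaling to −0.14. Both called 7 members there.

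With the replicate number as a block, 6 members were called in the Hdac2 line (3624 genes), 0 in the Hdac1 line, 0 for the difference and 0 in the comparison of EtOH libraries (184 genes). Deviations of libraries with the same number had correlations of 0.26 in the Hdac2 line and −0.69 in the Hdac1 line, and of −0.12 to 0.16 between the lines. With 2 libraries per group these values cannot show whether the numbers pair the libraries. A replicate block with the numbers crossed in the Hdac1 line, added after seeing the data, called 10 members and 945 genes there.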
